A study of Mus musculus with 12 samples.

Results

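The 10 genes described here encode a nucleoside carrier and enzymes of pyrimidine salvage, activation and breakdown. The anticancer drug 5-fluorouracil (5-FU) enters these routes, but not every one of the genes acts on 5-FU itself. The genes are Slc29a1, Umps, Uck1, Uck2, Upp1, Upp2, Cmpk1, Dpyd, Dpys and Cda. The rule names them for their place in the pathway and sets no threshold on a measured value. All 10 were among the 47069 genes counted, and 9 of them had enough reads to be among the 16157 genes tested, Dpys being the exception.

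The libraries were made from mouse liver cancer organoids, which are self-organising cultures of tumour cells grown in a gel. The organoids carried the genotype LGR5-DTRGFP+ on a C57BL/6 strain, in which a diphtheria toxin receptor and green fluorescent protein are expressed from the Lgr5 locus. Per the study's methods the liver tumours were induced with diethylnitrosamine in mice a few weeks old, which were killed months after the last injection, and all 4 groups share this origin. Cells were sorted by GFP into LGR5+ and LGR5- cells, from organoids left untreated or given 5-FU. The resulting 4 groups held 3 libraries apiece. The dose and duration of 5-FU for these libraries, the animals behind them with their age at killing, and the number of organoid lines are not given in the sources used here. The labels do not say whether replicates came from separate cultures or animals, so the P values below measure the spread between these libraries, which may be technical.

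5-FU is a pyrimidine base that enters the same routes as uracil. It becomes toxic only after conversion to nucleotides, either in a single step with phosphoribosyl pyrophosphate or through a nucleoside that is then phosphorylated. The products enter RNA and DNA and block thymidylate synthase. In the liver, most of the drug is instead reduced and opened by the uracil breakdown enzymes.

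Sequencing gave 13750591 to 19323514 reads assigned to genes per library. Mitochondrial genes took 1.47% to 3.08% of them in 10 libraries, and 6.93% and 6.44% in replicate 3 of untreated and of 5-FU-treated LGR5- cells. The closest of all pairs of libraries joined replicate 1 of untreated LGR5- and replicate 1 of untreated LGR5+ cells, which differed by a root mean square of 0.394 on the log2 scale, against 0.433 for the closest pair within a group. Lgr5 itself was at 23.0 to 36.0 CPM (reads scaled to a common library size) in untreated LGR5- and 23.3 to 27.5 CPM in untreated LGR5+ libraries, so its RNA did not separate the sorted populations. Of the 8 hepatocyte markers, Ttr had at most 1 read, Hnf4a, Cps1 and Tat at most 2, Apoa1 at most 11, Cyp2e1 at most 13 and Alb at most 33 reads in any library, while the fetal liver gene Afp had 178 to 966. The 6 bile duct markers ran from 6169 to 76666 reads of Krt19, 10154 to 97131 of Krt7, 9193 to 26562 of Epcam and 2150 to 6307 of Sox9 down to 33 to 397 of Spp1 and 0 to 9 of Cftr. Of the 5 lung epithelial markers, Sftpc had 46591 to 315963 reads and Nkx2-1 had 714 to 1386. Sftpb had 160 to 529, Sftpa1 20 to 647 and Scgb1a1 2 to 1180 reads. In these libraries labelled as liver cancer, 7 of the 8 hepatocyte markers were thus near 0, Afp being the exception.

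Levels of the 10 genes were first compared with each other per kilobase of exon (RPKM). In untreated cells the nucleoside carrier Slc29a1 had the highest level, 33.9 ± 4.53 RPKM in LGR5- and 30.6 ± 3.29 RPKM in LGR5+ libraries (SD, n = 3), above every library of the next gene, Uck2. Uck2, Cmpk1, Umps and Uck1 followed with mean levels between 15.2 and 24.6 RPKM, and neighbours among these 4 genes overlapped in their libraries. Cda came next, at 10.2 ± 1.81 RPKM in LGR5- and 11.2 ± 2.09 RPKM in LGR5+ libraries. The remaining genes were far lower. Upp1 and Upp2 had mean levels between 0.237 and 0.49 RPKM, and their libraries overlapped in both untreated groups. Dpyd, the entry enzyme of 5-FU breakdown, stood at 0.127 ± 0.0575 RPKM in LGR5- and 0.121 ± 0.0266 RPKM in LGR5+ cells. The RNA for direct activation, Umps, exceeded that for the entry into breakdown, Dpyd, by 57.1-fold to 406-fold per kilobase in the 12 libraries, a ratio that rests on only 5 to 31 Dpyd reads per library.

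**Figure D1:**
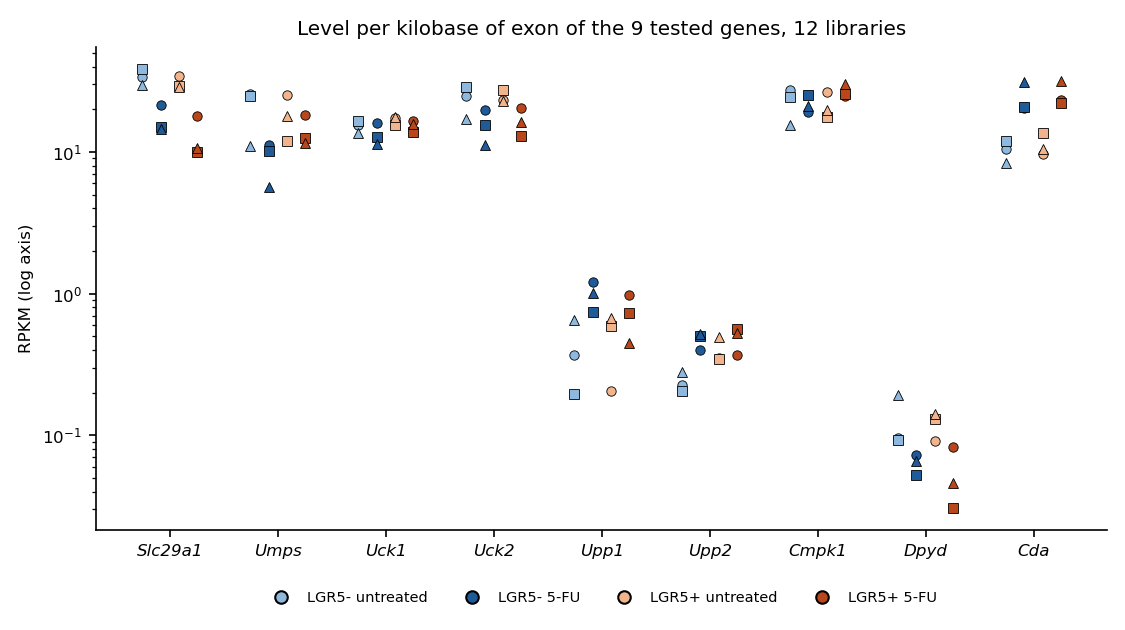
RPKM of the 9 tested genes in each of the 12 libraries, on a log axis, by sorted population and treatment, with the replicate number given by the symbol. Slc29a1, Umps, Uck1, Uck2, Cmpk1 and Cda lie at 5.66 RPKM or above in every library, and Upp1, Upp2 and Dpyd at 1.199 RPKM or below.

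After 5-FU the order of the levels changed at its top. Cda, a cytidine deaminase, had the highest mean in LGR5- cells at 24.1 ± 6.00 RPKM, and Cmpk1 and Cda led in LGR5+ cells at 26.9 ± 3.02 and 25.7 ± 5.07 RPKM. Slc29a1 took the third place in LGR5- cells, at 17.0 ± 3.88 RPKM, and the sixth in LGR5+ cells, at 12.9 ± 4.39 RPKM. In LGR5+ cells Cda lay above every library of the next gene, Uck2, and in LGR5- cells neighbours among the 5 highest genes overlapped. By their means the lowest genes were Upp1, Upp2, Dpyd and Dpys in that order in all 4 groups. Upp1 and Upp2 overlapped in 3 of the groups, all but treated LGR5- cells, and Dpyd and Dpys overlapped in treated LGR5- cells, where Dpys had at most 3 reads.

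Against untreated cells, 2 of the 9 tested genes passed an adjusted P of 0.05 in LGR5+ cells, Cda upwards and Slc29a1 downwards. In LGR5- cells 4 passed, Cda and Upp2 upwards and Slc29a1 and Umps downwards. The background was high, since 16.0% of all 16157 tested genes passed in LGR5+ cells (9.66% higher, 6.37% lower) and 15.4% in LGR5- cells (8.30% higher, 7.11% lower). The median log2 fold change of the 9 genes was -0.14 in LGR5+ and -0.18 in LGR5- cells, beside -0.016 and -0.05 over all tested genes. The study's methods name P under 0.05 and an absolute logFc over 1.5, read here as unadjusted P and log2 fold change. At those thresholds none of the 9 genes passed in either population, whereas 1168 and 1131 genes did in all. The test was edgeR's quasi-likelihood test with Benjamini-Hochberg adjustment over all tested genes. In bulk RNA such as this, a change in the share of cells of one kind and a change in RNA per cell cannot be told apart.

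**Figure D2:**
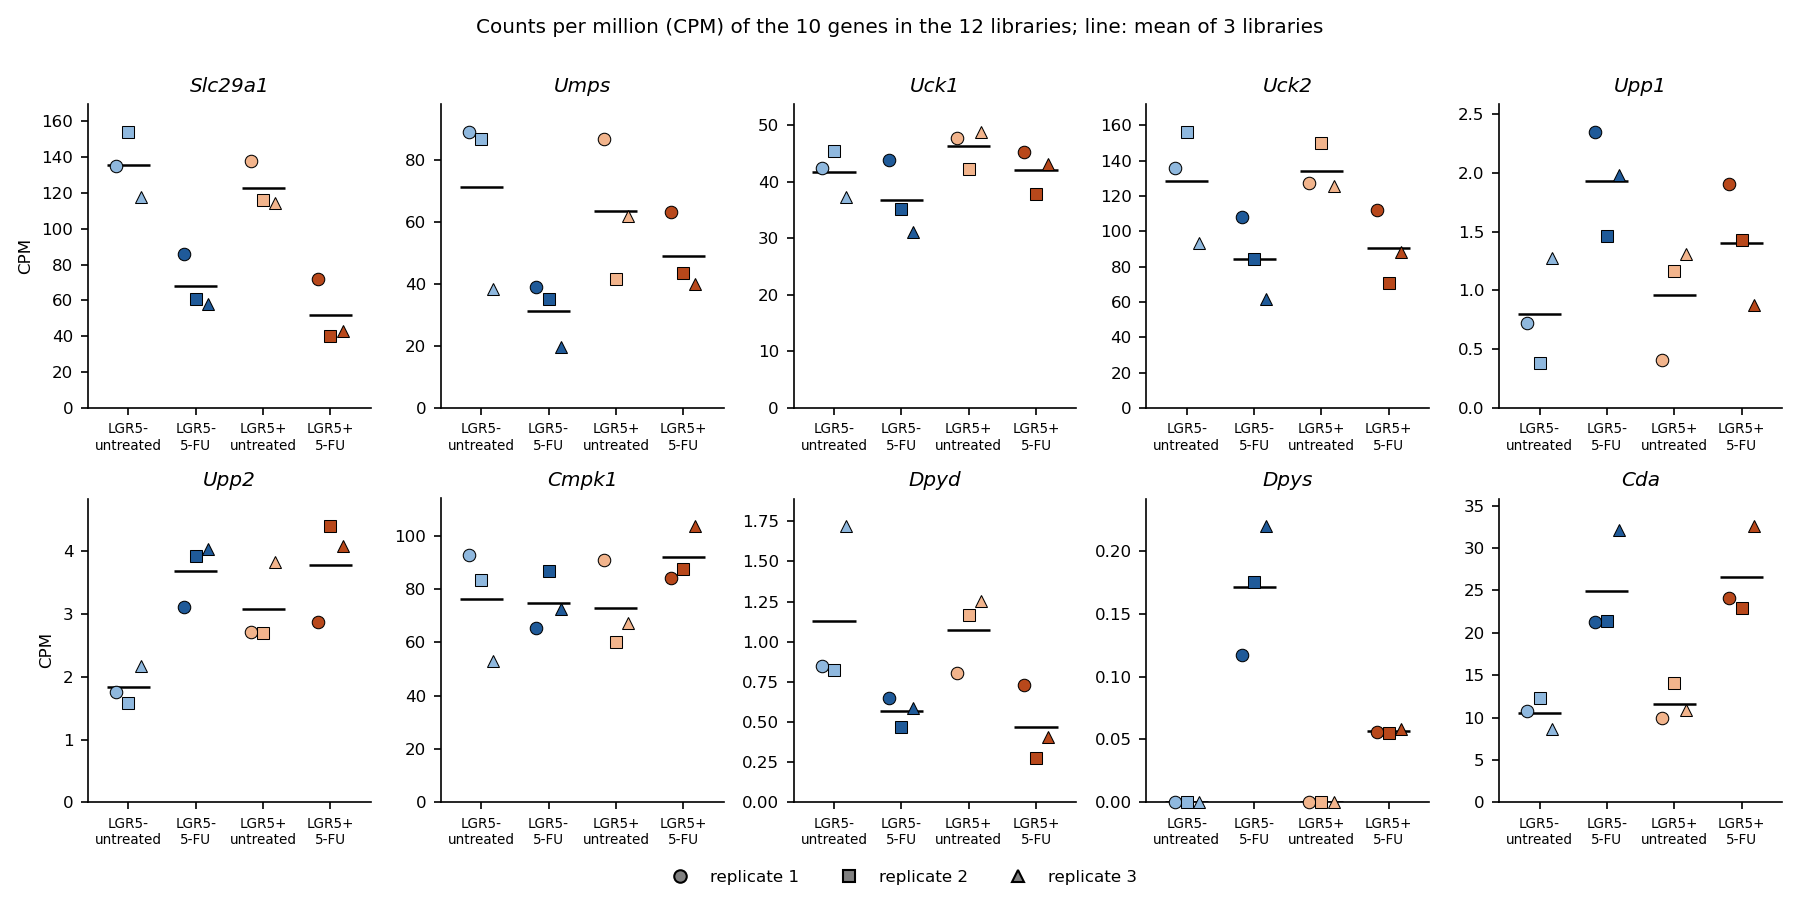
CPM of each of the 10 genes in every library, with the 3 replicates of a group as symbols and their mean as a line. In both sorted populations the 5-FU libraries lie wholly above the untreated ones for Cda and wholly below them for Slc29a1, and the 6 untreated libraries have no Dpys read.

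Because Cda and Slc29a1 were called in both populations, in opposite directions, the genomic sequence just upstream of each is shown, from 250 to 51 bases before the RefSeq gene start (GRCm38.p6, minus strand of the chromosome, written 5′ to 3′ along the gene). For Slc29a1 the most upstream listed start was used. The Cda stretch is chr4:138368006-138368205, with a GC content of 68%, and capitals mark its 1 GC box, GGGCGG, found on the opposite strand. The Slc29a1 stretch is chr17:45599669-45599868, with a GC content of 58.5%, and has no capitals because none of the letters searched were found.
Cda: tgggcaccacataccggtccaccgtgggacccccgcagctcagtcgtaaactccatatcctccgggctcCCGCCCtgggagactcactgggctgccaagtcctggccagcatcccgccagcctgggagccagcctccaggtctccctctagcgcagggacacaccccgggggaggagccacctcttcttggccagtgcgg
Slc29a1: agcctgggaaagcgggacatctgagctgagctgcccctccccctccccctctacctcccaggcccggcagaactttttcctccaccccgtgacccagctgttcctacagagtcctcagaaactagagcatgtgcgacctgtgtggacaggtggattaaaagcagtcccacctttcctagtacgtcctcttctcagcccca

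The letters searched on both strands were the GC box GGGCGG, present in 24.6% of 27025 promoter stretches of this length, the CCAAT box CCAAT (28.9%), the AP-1 site TGANTCA (5.72%), the E box CACGTG (4.35%) and the E2F-like GGCGGGAA (1.41%) and GGCGCGAA (0.311%). GGGCGG and GGCGGGAA can share bases. Among the 9 genes with a stretch in the table, the GC box was present for Upp1, Upp2, Uck2, Dpyd and Cda, and the CCAAT box for Upp2. The other 4 strings were absent from all 9. A match is a description of letters and an absence says only that these letters are not in this stretch.

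Slc29a1 (ENSMUSG00000023942, chr17:45585200-45599606) encodes the equilibrative nucleoside transporter ENT1, which carries nucleosides and some of their analogues across the cell membrane. In untreated LGR5+ libraries it stood at 138, 116 and 114 CPM, and in 5-FU-treated LGR5+ libraries at 71.9, 40.0 and 43.0 CPM. In LGR5- cells the untreated libraries had 135, 154 and 118 CPM and the treated ones 85.95, 60.5 and 57.75 CPM. Every treated library lay below every untreated one, and in both populations replicate 1 was the highest of the treated libraries. Slc29a1 was 2.38-fold lower after 5-FU in LGR5+ cells (log2 fold change -1.25, SE 0.237, adjusted P = 0.00236) and 1.99-fold lower in LGR5- cells (-0.995, SE 0.236, adjusted P = 0.0106). Both calls held in all 16 alternatives run, with adjusted P up to 0.0213 and 0.0497. The gene shares 275 of its 4008 exon bases with the antisense gene Gm17080, which had 0 to 11 reads per library, and whether the counting used strand is not given in the sources used here.

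Umps (ENSMUSG00000022814, chr16:33954782-33967038, minus strand) encodes uridine monophosphate synthetase, whose orotate phosphoribosyltransferase activity converts 5-FU directly to its monophosphate. Untreated LGR5- libraries had 89.3, 86.9 and 38.5 CPM and treated ones 39.0, 35.1 and 19.7 CPM. The groups overlapped slightly, because untreated replicate 3 lay just under treated replicate 1. The gene was 2.29-fold lower after 5-FU in LGR5- cells (log2 fold change -1.19, SE 0.351, adjusted P = 0.0334). This call was lost without untreated replicate 1 (-1.003, adjusted P = 0.131) or 2 (-1.03, adjusted P = 0.117) and without treated replicate 2 (-1.29, adjusted P = 0.0711) or 3 (-0.91, adjusted P = 0.136). It was also lost with no filter on low counts (adjusted P = 0.125), with the LGR5- libraries fitted alone (adjusted P = 0.0694) and without both untreated replicate 1 libraries. In LGR5+ cells the untreated libraries had 87.1, 41.7 and 62.0 CPM and the treated ones 63.5, 43.8 and 40.0 CPM, ranges that overlapped widely, and the log2 fold change was -0.375 (95% confidence interval -1.115 to 0.365, adjusted P = 0.513). Of the 3484 exon bases 213 are shared with the antisense gene Gm15829, which had at most 7 reads in a library.

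The indirect route begins with uridine phosphorylases, which join a base to ribose phosphate or split the nucleoside again. Upp1 (ENSMUSG00000020407, chr11:9118103-9136170), the form found in most tissues, had only 7 to 40 reads per library. Its level was 0.726, 0.384 and 1.28 CPM in untreated and 2.35, 1.46 and 1.98 CPM in treated LGR5- libraries, and 0.404, 1.17 and 1.31 CPM in untreated and 1.91, 1.43 and 0.876 CPM in treated LGR5+ libraries. Treated libraries were all above untreated ones in LGR5- cells and overlapped with them in LGR5+ cells. Neither difference passed the test, with log2 fold changes of 1.27 (SE 0.537, adjusted P = 0.13) in LGR5- and 0.55 (SE 0.533, adjusted P = 0.537) in LGR5+ cells. Leaving out untreated LGR5- replicate 3 gave 1.79 and an adjusted P of 0.0375 in LGR5- cells.

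Upp2 (ENSMUSG00000026839, chr2:58567298-58792971), a uridine phosphorylase known chiefly from liver, had 29 to 80 reads per library. In untreated LGR5- cells it stood at 1.755, 1.59 and 2.16 CPM and in treated ones at 3.12, 3.92 and 4.03 CPM. The groups did not overlap, and the gene was 2.003-fold higher after 5-FU (log2 fold change 1.002, SE 0.306, adjusted P = 0.0388). The call was lost without untreated replicate 1 (0.97, adjusted P = 0.116) or 2 (0.91, adjusted P = 0.123) and without treated replicate 2 (0.95, adjusted P = 0.103) or 3 (0.97, adjusted P = 0.0834). It was also lost with library size alone as the scale (adjusted P = 0.0588), with no filter (adjusted P = 0.0847) and with the LGR5- libraries fitted alone (adjusted P = 0.157). Leaving out both untreated replicate 1 libraries lost it too. In LGR5+ cells untreated libraries had 2.71, 2.70 and 3.82 CPM and treated ones 2.86, 4.40 and 4.09 CPM. These overlapped, with a log2 fold change of 0.30 (95% confidence interval -0.34 to 0.93, adjusted P = 0.55).

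Uridine-cytidine kinases then phosphorylate the nucleoside. Uck1 (ENSMUSG00000002550, chr2:32255002-32260159, minus strand) was not called in either population, with 31.1 to 48.9 CPM over the 12 libraries and overlapping groups, and had log2 fold changes of -0.14 (95% confidence interval -0.495 to 0.22) in LGR5+ and -0.18 (-0.54 to 0.18) in LGR5- cells. Uck2 (ENSMUSG00000026558, chr1:167222883-167285320, minus strand), the form that is abundant in many tumours, had 127, 150 and 126 CPM in untreated and 112, 70.8 and 88.4 CPM in treated LGR5+ libraries. In LGR5- cells it had 136, 156 and 93.3 CPM untreated and 108, 84.1 and 61.5 CPM treated. Treated LGR5+ libraries all lay below untreated ones, whereas the LGR5- groups overlapped. Neither difference passed the test, at -0.57 (SE 0.245, adjusted P = 0.13) in LGR5+ and -0.60 (SE 0.245, adjusted P = 0.116) in LGR5- cells. In LGR5- cells the adjusted P was 0.0285 without untreated replicate 3 and 0.049 without both treated replicate 1 libraries. In LGR5+ cells it was 0.0302 with those libraries fitted alone and 0.0232 without both LGR5- replicate 3 libraries. Per kilobase, Uck2 exceeded Uck1 by 1.26-fold to 1.79-fold in the 6 untreated libraries, and the ratio was 0.943 to 1.24 in the 6 treated ones.

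Cmpk1 (ENSMUSG00000028719, chr4:114959336-114987241, minus strand), the kinase that adds the next phosphate to uridine and cytidine monophosphates, showed no call. It had 91.0, 60.0 and 67.25 CPM in untreated and 84.2, 87.7 and 104 CPM in treated LGR5+ libraries, and 92.85, 83.3 and 52.9 CPM in untreated and 65.3, 86.6 and 72.6 CPM in treated LGR5- libraries. Ranges overlapped in both populations. The log2 fold changes were 0.34 (95% confidence interval -0.14 to 0.82) in LGR5+ and -0.028 (-0.51 to 0.45) in LGR5- cells, and the sign in LGR5- cells turned with the scaling and with single libraries.

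Dpyd (ENSMUSG00000033308, chr3:118562129-119432924) encodes dihydropyrimidine dehydrogenase, the rate-limiting enzyme of 5-FU breakdown. Untreated LGR5+ libraries had 14, 19 and 21 reads, or 0.808, 1.17 and 1.25 CPM, and treated ones 13, 5 and 7 reads, or 0.730, 0.275 and 0.409 CPM. Untreated LGR5- libraries had 14, 15 and 31 reads, or 0.847, 0.822 and 1.72 CPM, and treated ones 11, 8 and 8 reads, or 0.647, 0.468 and 0.586 CPM. All treated libraries lay below all untreated ones in each population. The log2 fold changes were -1.18 (SE 0.516, adjusted P = 0.139) and -0.99 (SE 0.51, adjusted P = 0.22), neither past the threshold in the fit or in any of 15 alternatives, and at this depth the 95% confidence intervals ran from -2.28 to -0.075 and from -2.08 to 0.10.

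Dpys (ENSMUSG00000022304, chr15:39768487-39857470, minus strand), dihydropyrimidinase, opens the reduced ring in the next step. No read was counted in any of the 6 untreated libraries, which allows up to 3 reads per library. Treated LGR5- libraries had 2, 3 and 3 reads and treated LGR5+ libraries 1 read each. All were at or under the limit of 3 reads, so no fold is given and its presence was not detectable beyond this depth. Such limits cover counting error only, as reads copied by PCR are not independent molecules.

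Cda (ENSMUSG00000028755, chr4:138338424-138367992, minus strand) encodes cytidine deaminase, a salvage enzyme that turns cytidine into uridine and also takes part in turning capecitabine, an oral prodrug, into 5-FU. In LGR5+ cells untreated libraries had 9.92, 14.1 and 10.9 CPM and treated ones 24.15, 23.0 and 32.6 CPM. In LGR5- cells the values were 10.8, 12.3 and 8.60 CPM untreated and 21.3, 21.4 and 32.1 CPM treated. The lowest treated library stood above the highest untreated one in each population, and replicate 3 was the highest treated library in both. Cda was 2.29-fold higher after 5-FU in LGR5+ cells (log2 fold change 1.19, SE 0.229, adjusted P = 0.00256) and 2.355-fold higher in LGR5- cells (1.24, SE 0.23, adjusted P = 0.00267). Both calls held in all 16 alternatives, with adjusted P of at most 0.0253 and 0.0161, and no exon base of Cda is shared with another annotated gene.

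**Figure D3:**
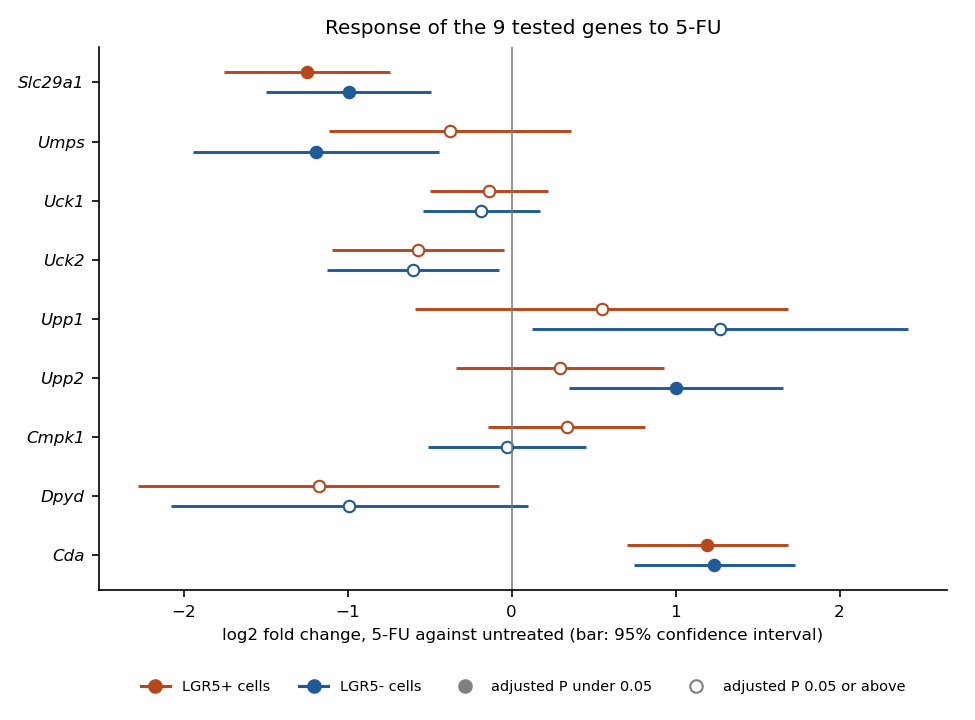
Log2 fold change of the 9 tested genes after 5-FU, with 95% confidence intervals, in LGR5+ and LGR5- cells. Filled circles mark an adjusted P under 0.05, reached by Cda and Slc29a1 in both populations and by Upp2 and Umps in LGR5- cells.

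Other RNAs moved with 5-FU in the same libraries. The 7 proliferation genes (Mki67, Top2a, Cdk1, Ccnb1, Mcm2, Mcm5 and Pcna) summed to 1280 to 1826 CPM in the untreated libraries and to 350.4 to 1029 CPM in the treated ones. Their log2 fold changes ran from -2.05 to -0.728 in LGR5+ and from -1.862 to -1.205 in LGR5- cells. Of them 4 were called lower in LGR5+ and 7 in LGR5- cells, beside 6.37% and 7.11% of all tested genes. Among treated libraries, replicate 1 had the highest sum in each population, at 749.6 CPM in LGR5- and 1029 CPM in LGR5+ cells. It was also the highest for Slc29a1, Umps, Uck2 and Dpyd, and for Upp1, whose log2 fold changes after 5-FU were positive. It was not the highest for Cda, Upp2 or Cmpk1. Of the 6 bile duct markers 5 were tested, and Krt19 and Krt7 were called higher in both populations. The summed level of the 6 went from 2359 to 3084 CPM untreated to 3408 to 7760 CPM in LGR5- and 7962 to 11860 CPM in LGR5+ cells. Of the 8 hepatocyte markers 3 were tested and only Afp was called, higher in both populations. The 8 summed to 11.2 to 22.6 CPM untreated and 26.3 to 56.85 CPM treated. Of the 6 leukocyte markers 2 were tested and only Cd68 was called, higher in both populations. The other, Ptprc, had uncalled log2 fold changes of 1.279 in LGR5+ and 0.944 in LGR5- cells. The 6 summed to 6.40 to 14.1 CPM untreated and 17.3 to 54.6 CPM treated. The 5 lung epithelial markers summed to 3505 to 17410 CPM untreated and 2738 to 6188 CPM treated, with only Scgb1a1 called, in LGR5- cells. Of the 5 fibroblast markers 3 were tested and 1 was called lower in each population. Of the 4 endothelial markers 2 were tested and none was called. The part of these differences in the results for the 10 genes was not tested.

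Comparing the sorted populations asked whether LGR5+ cells carry more or less RNA of these genes than LGR5- cells. None of the 9 tested genes was called between LGR5+ and LGR5- cells, untreated or treated, and none of all tested genes either (0% in each). In untreated cells 214 genes had an unadjusted P under 0.05 in edgeR, among them Upp2 alone of the 9, and in treated cells 2095 genes did, with none of the 9. DESeq2 called 0 of the 9 in both comparisons, and of all genes 0 in untreated and 82 in treated cells. Upp2 stood higher in all 3 untreated LGR5+ libraries than in the LGR5- ones, with a log2 fold change of 0.74 (95% confidence interval 0.089 to 1.396, unadjusted P = 0.0287, adjusted P = 1). The other 8 genes differed by -0.17 to 0.27 in untreated cells.

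In treated cells the differences lay between -0.455 and 0.65. Umps was higher in all 3 LGR5+ libraries, at 63.5, 43.8 and 40.0 CPM, than in the LGR5- ones, at 39.0, 35.1 and 19.7 CPM, with a log2 fold change of 0.65 (95% confidence interval -0.099 to 1.39, adjusted P = 0.416). Slc29a1 differed by -0.40 (95% confidence interval -0.90 to 0.10, adjusted P = 0.447). Same-numbered treated libraries deviated together, so they were also fitted on their own with the replicate number as a block. This paired fit called 451 genes of all tested and again 0 of the 9, with Umps at 0.60 (adjusted P = 0.0542) and Slc29a1 at -0.50 (adjusted P = 0.0628). The same 6 libraries without the block gave 0 genes, as did all 12 libraries with the block.

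**Figure D4:**
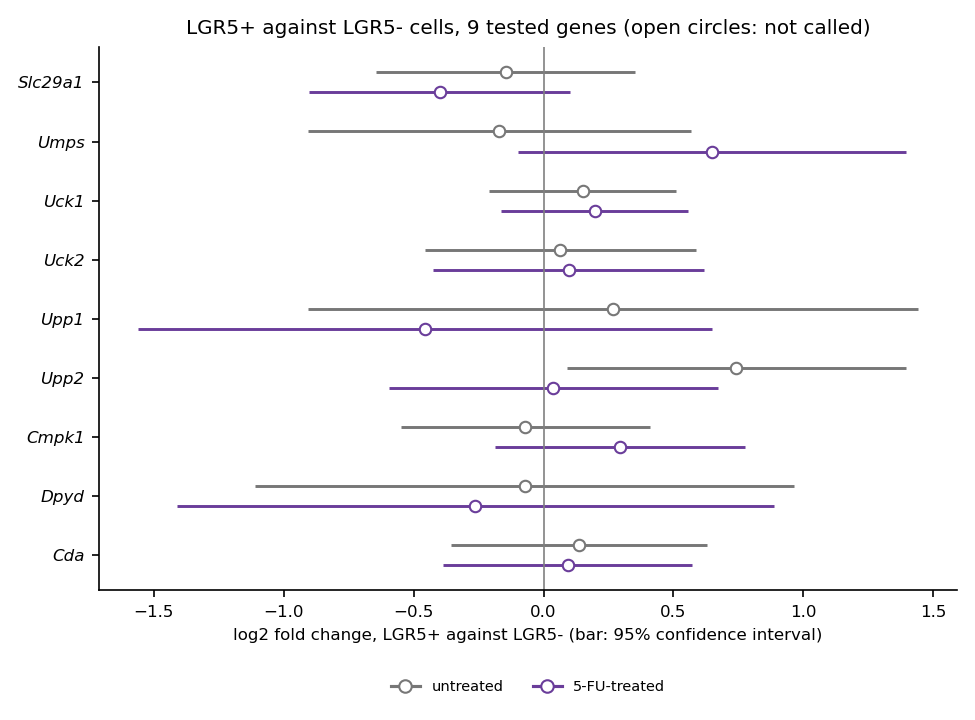
Log2 fold change of LGR5+ against LGR5- cells for the 9 tested genes, untreated and 5-FU-treated, with 95% confidence intervals. All circles are open because no gene passed, and every interval but that of Upp2 in untreated cells includes 0.

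Whether the response to 5-FU differed between the populations was tested as the difference between both fold changes. This called 0 of the 9 genes and 0% of all genes, with 254 genes and none of the 9 at an unadjusted P under 0.05, and DESeq2 called 0 genes of all. For Umps the response in LGR5+ minus that in LGR5- cells was 0.82 on the log2 scale (95% confidence interval -0.23 to 1.87, adjusted P = 1), and for Upp2 it was -0.705 (-1.61 to 0.20, adjusted P = 1). Their calls in LGR5- cells are thus not shown to be particular to those cells. For Slc29a1 it was -0.25 (-0.96 to 0.45) and for Cda -0.042 (-0.73 to 0.64), intervals that leave room for unequal responses.

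The other genes of pyrimidine uptake, synthesis, salvage and breakdown were taken from a list of 35, of which 32 were tested and Agxt2, Slc28a2 and Slc22a7 had too few reads. In LGR5+ cells 4 were called higher and 5 lower, beside 9.66% higher and 6.37% lower over all tested genes. In LGR5- cells 2 were called higher and 6 lower, beside 8.30% and 7.11%. Among 5 tested carriers, Slc29a2, the related transporter ENT2, fell in both populations, from 3.76 to 6.63 CPM to 2.14 to 2.58 CPM in LGR5+ cells (log2 fold change -1.04, adjusted P = 0.0415) and from 4.48 to 6.69 CPM to 1.17 to 1.94 CPM in LGR5- cells (-1.64, adjusted P = 0.00438). Slc28a3, a concentrative nucleoside carrier, had 1.09 in LGR5+ cells (adjusted P = 0.0929) and 0.008 in LGR5- cells (adjusted P = 0.992), and in LGR5+ cells it was called higher with the compared groups alone (adjusted P = 0.0119) and without both LGR5- replicate 3 libraries (adjusted P = 0.00988). Of the 6 genes that make uridine monophosphate precursors, phosphoribosyl pyrophosphate or cytidine triphosphate, edgeR with all libraries called 0. Other settings called some of them. In LGR5+ cells these were Prps1 (adjusted P = 0.0471) and Prps2 (adjusted P = 0.00992) with the compared groups alone, and Prps2 (adjusted P = 0.00415) and Dhodh (adjusted P = 0.0433) without both LGR5- replicate 3 libraries. In LGR5- cells they were Dhodh (adjusted P = 0.00794) and Ctps (adjusted P = 0.0492) without untreated LGR5- replicate 3, and Dhodh (adjusted P = 0.0177) without both LGR5- replicate 3 libraries. Tyms, the thymidylate synthase that fluorodeoxyuridine monophosphate inhibits, fell by 1.04 in LGR5+ cells (adjusted P = 0.0158) and by 1.38 in LGR5- cells (adjusted P = 0.00347) on the log2 scale.

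Of 11 tested salvage enzymes and kinases, Tymp rose, while Tk1 and Dtymk fell, in both populations, and Dck fell in LGR5- cells. Tymp, thymidine phosphorylase, can join 5-FU to deoxyribose and stood at 16 to 32 reads in untreated and 33 to 88 reads in treated libraries, with log2 fold changes of 1.35 (adjusted P = 0.0168) in LGR5+ and 1.31 (adjusted P = 0.0226) in LGR5- cells. It shares 856 of its 2037 exon bases with other genes, so its counts are uncertain. Tk1, the cytosolic thymidine kinase, fell by 1.345 and 1.57 on the log2 scale, and Dtymk, which phosphorylates thymidine monophosphate, fell by 0.73 and 0.69 in LGR5+ and LGR5- cells. Dck, the deoxycytidine kinase, fell by 1.29 in LGR5- cells (adjusted P = 0.0488) and had -0.76 in LGR5+ cells (adjusted P = 0.228). In LGR5+ cells it was called with the replicate block (-0.86, adjusted P = 0.036) and without both treated replicate 1 libraries (-1.17, adjusted P = 0.0459).

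Of the 8 enzymes that remove phosphate, Dut, which hydrolyses deoxyuridine triphosphate, fell in both populations, by 1.075 in LGR5+ cells (adjusted P = 0.0236) and by 1.27 in LGR5- cells (adjusted P = 0.0106). Nt5e, the ectonucleotidase CD73, rose in both, from 0 to 8 reads in the untreated libraries to 11 to 40 reads in the treated ones (adjusted P = 0.0174 and 0.00734). The cytosolic nucleotidases Nt5c and Nt5c2 rose in LGR5+ cells, by log2 fold changes of 0.61 (adjusted P = 0.038) and 1.34 (adjusted P = 0.0103), and had 0.51 (adjusted P = 0.0805) and 0.63 (adjusted P = 0.206) in LGR5- cells. Nt5c was called in LGR5- cells too by DESeq2 (adjusted P = 0.0417), with library size alone (adjusted P = 0.0424) and with at least 10 reads in every library (adjusted P = 0.0486). Upb1, the last enzyme of uracil breakdown, had -0.94 in LGR5+ cells (adjusted P = 0.0776) and -0.695 in LGR5- cells (adjusted P = 0.202) and was not called by edgeR with all libraries. In LGR5+ cells it was called by DESeq2 (-0.95, adjusted P = 0.0422), without untreated LGR5+ replicate 1 (-1.21, adjusted P = 0.0315), without both untreated replicate 1 libraries (adjusted P = 0.0421) and without both LGR5- replicate 3 libraries (adjusted P = 0.0438).

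The calls of these pathway genes differed in how far they rested on single libraries, over 16 alternatives in each population. In LGR5- cells Tyms and Slc29a2 were called in all 16, Nt5e in 15, Dut in 13, Tk1 in 12, Tymp in 11, Dck in 7 and Dtymk in 6. There the call of Dck was lost without untreated replicate 1 or 2 or treated replicate 2 or 3, that of Dtymk without any library but untreated replicate 3, those of Dut and Tk1 without treated replicate 2 or 3, and that of Tymp without untreated replicate 2 or treated replicate 1 or 2. The compared groups alone also lost Dck, Dtymk and Tymp, no filter on low counts lost Dck and Dtymk, library size alone lost Dck, and relative log expression size factors lost Dtymk. Leaving out both untreated replicate 1 libraries lost Dck, Dtymk, Dut and Tk1, both treated replicate 1 libraries Dtymk and Tymp, and both LGR5- replicate 3 libraries Dck and Tk1.

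In LGR5+ cells Nt5c2 was called in 14 of the 16, Tyms and Tymp in 12, Dut and Nt5e in 11, Dtymk in 10, Nt5c and Tk1 in 9 and Slc29a2 in 7. Of the 9 genes, Nt5c2 alone was called without untreated LGR5+ replicate 1 or without both untreated replicate 1 libraries, and Tyms alone without untreated replicate 3. Without untreated replicate 2 the genes called were Dut, Nt5e, Tymp and Tyms, without treated replicate 2 Nt5c2 and Nt5e, and without treated replicate 3 Nt5c2 and Tymp. Slc29a2 was the gene lost without treated replicate 1 and without both treated replicate 1 libraries, and no filter on low counts lost Nt5c, Tk1 and Slc29a2. A filter of 10 reads per library removed Nt5e from the test in both populations, as its untreated libraries held 0 to 8 reads.

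**Figure D5:**
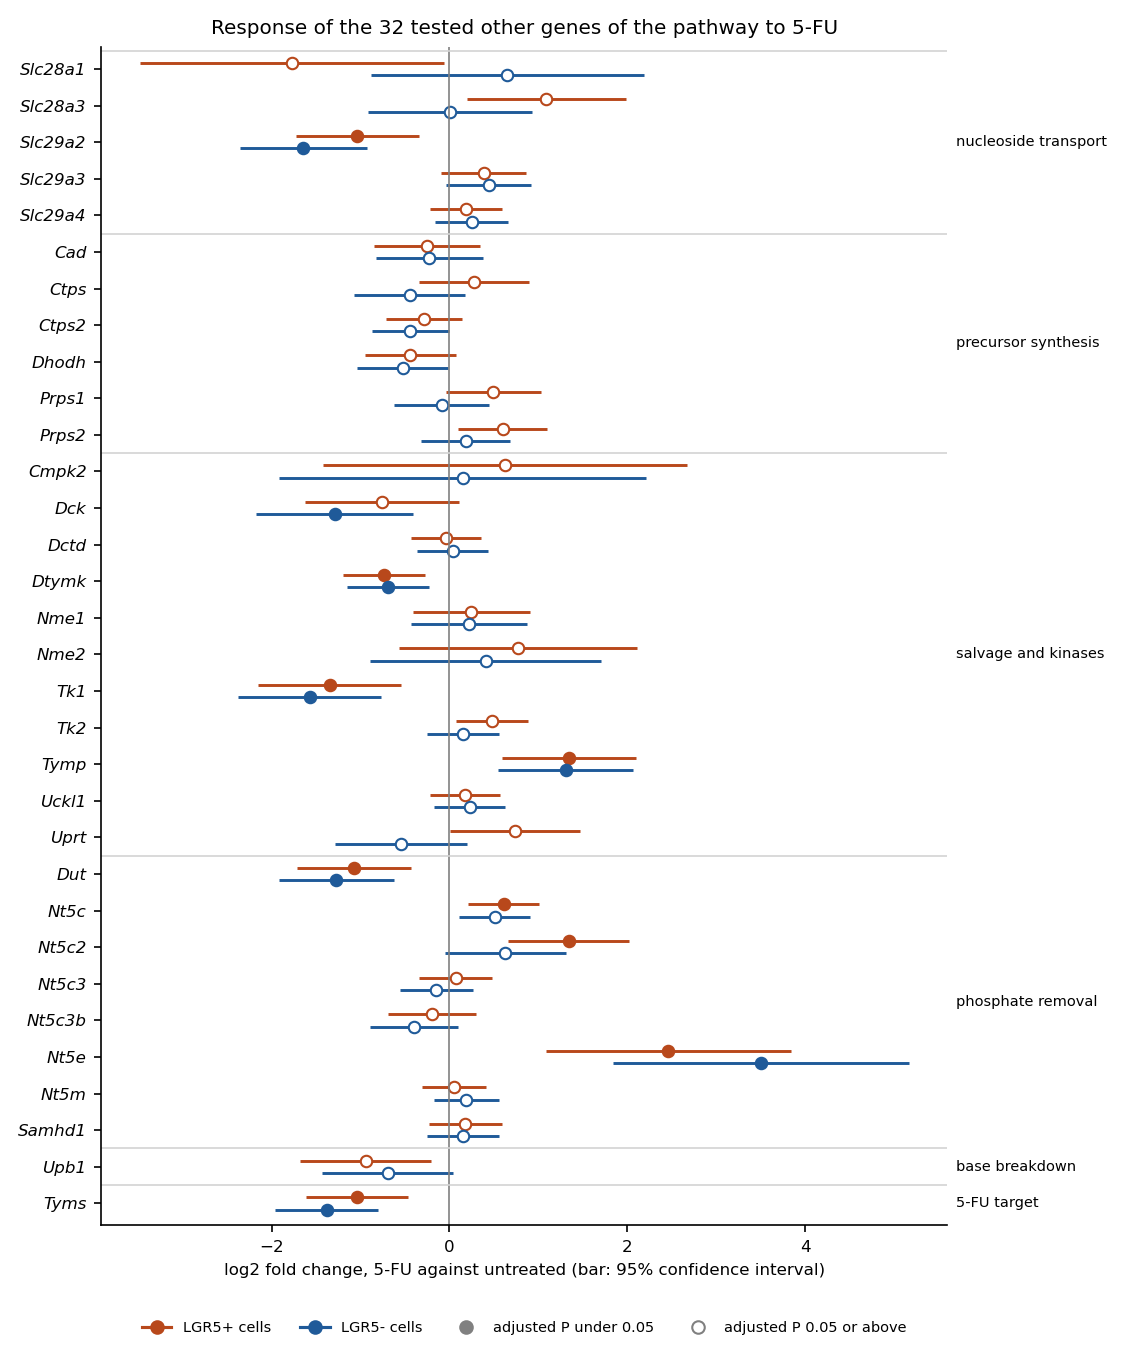
Log2 fold change after 5-FU, with 95% confidence intervals, of the 32 other tested genes grouped by role, in LGR5+ and LGR5- cells. Filled circles mark an adjusted P under 0.05, among them Tyms, Tk1, Dtymk, Dut and Slc29a2 to the left of 0 and Tymp and Nt5e to the right of 0 in both populations.

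Between the sorted populations none of these 32 genes was called by edgeR in either state with all libraries fitted together, where 0 in untreated and 7 in treated cells had an unadjusted P under 0.05, and DESeq2 called none. In the paired fit of the treated libraries 1 was called, the carrier Slc28a3, higher in LGR5+ cells by 1.29 on the log2 scale (adjusted P = 0.0392), a gene singled out after its value was seen.

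The tested genes most like each called member were found by the root mean square difference of their log2 CPM, centred on the mean over the 12 libraries. For Cda they were Urah (0.146), Tmem40 (0.171) and Slc22a18 (0.177), with Cda itself spreading by 0.675 and a median difference over all tested genes of 0.774. For Slc29a1 they were Rfc3 (0.138), 1700066B19Rik (0.16) and Stard4 (0.177). For Umps they were Hmgcs1 (0.104), Rbbp7 (0.113) and Tpst1 (0.16), and for Upp2 Gm3724 (0.196), Zkscan14 (0.197) and Tmem38a (0.226). Likeness over 12 libraries in 4 groups is a description, since all genes share those libraries.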

How the data were processed

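Sorted cells were made into cDNA libraries with a SMART-Seq kit, 3 per group. The deposited values are whole-number read counts per gene, one table for all libraries. The authors' processing notes name HISAT2, HISAT, TopHat2 and HTSeq, without versions, and the build mm8. The annotation and the use of strand are not given in the sources used here. Gene names, exon lengths and coordinates were taken from GENCODE M21 (GRCm38), which held 46574 of the 47069 gene identifiers, so they describe that annotation and not the authors' counting.

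The 10 genes and all other lists were chosen with earlier results of these data known. Genes were kept by filterByExpr, which left 16157. Libraries were scaled by trimmed mean of M values (TMM), and CPM and RPKM use those scaled totals. All 12 libraries entered 1 edgeR fit (version 4.0.16, R 4.3.3) of 4 group means with the robust quasi-likelihood test, and a gene was called at a Benjamini-Hochberg adjusted P under 0.05. Intervals are 95% confidence intervals. The biological coefficient of variation was 26.6%. The scripts were tested on simulated counts with known changes. Alternatives were DESeq2 (version 1.42.0), other scalings and filters, the compared groups alone, the replicate number as a block, and leaving out libraries. Named were all 10 members, the called genes of the pathway list with Tyms, the marker genes, Lgr5 and the 3 genes nearest in pattern to each called member. Some genes were named outside this rule, after their values were seen. They were other pathway genes untested or called only under an alternative, Uprt, Slc28a1 and genes overlapping a member.

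Same-numbered libraries deviated together in treated LGR5+ and LGR5- cells (correlations over tested genes 0.571, 0.217 and 0.304), which was taken as pairing. In the untreated sort (0.481, -0.119 and 0.223) and between treated and untreated LGR5+ cells (-0.085, -0.168 and 0.018) they did not in every pair. Between treated and untreated LGR5- cells the correlations were all positive (0.055, 0.282 and 0.425). That comparison had no block in the main fit and had it as an alternative.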

Additional observations from a re-analysis of the deposited data

Results flagged for a closer look

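Uprt, which encodes a protein related to the uracil phosphoribosyltransferases of other organisms, had treated libraries above untreated ones in LGR5+ cells and below them in LGR5- cells. In LGR5+ cells the treated libraries had 2.64, 2.97 and 3.50 CPM, all above the untreated ones at 2.54, 1.47 and 1.43 CPM, and in LGR5- cells the treated libraries had 1.53, 1.29 and 1.61 CPM, all below the untreated ones at 2.60, 2.03 and 1.83 CPM. Neither change passed the test, with log2 fold changes of 0.74 (adjusted P = 0.16) and -0.54 (adjusted P = 0.334) in edgeR. The response in LGR5+ minus that in LGR5- cells was 1.28 on the log2 scale (95% confidence interval 0.24 to 2.325), with an unadjusted P of 0.0193 and an adjusted P of 1 in edgeR, so the difference did not pass the test over all genes. Reads ranged from 22 to 60 per library. Uprt was noticed for these values, and no cause was tested. Of the 32 other tested pathway genes, 2 had an unadjusted P under 0.05 in edgeR for this difference, beside 254 of all 16157 tested genes. These were Uprt and the carrier Slc28a1, which had -2.427 with 2 to 28 reads per library and was not called.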

How the results depend on the processing

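The calls of Cda and Slc29a1 after 5-FU held in both populations under all 16 alternatives each. The count of the 9 tested genes called in LGR5+ cells was 2 or 3 throughout. In LGR5- cells it was 4, 3 with library size alone, 5 without both treated replicate 1 libraries, and 2 with no filter on low counts, with only the compared groups fitted, or without both untreated replicate 1 libraries, and it ranged from 2 to 6 with single libraries left out. The lost calls were Umps, Upp2 or both. Pathway genes called in LGR5+ cells (9) were 12 with only the compared groups fitted, 13 without both LGR5- replicate 3 libraries, 2 without both untreated replicate 1 libraries and 1 to 8 with single libraries left out. In LGR5- cells (8) they were 5 with only the compared groups fitted, 4 without both untreated replicate 1 libraries and 3 to 10 with single libraries left out. The replicate block gave 2 and 4 members and 10 and 8 pathway genes called, and it changed no other call of a member. Its fit of the treated libraries alone called 451 genes and 1 pathway gene between LGR5+ and LGR5- cells. The 3 pairs of libraries were chosen to be left out, and that last fit added, after seeing the data.

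Signs turned for several values near 0. Cmpk1 in LGR5- cells (-0.028) was 0.013 with library size alone, 0.187 without both untreated replicate 1 libraries, 0.059 without both treated replicate 1 libraries and -0.238 to 0.135 with single libraries left out. The difference of responses of Cda (-0.042) was 0.308 without both LGR5- replicate 3 libraries and -0.209 to 0.144 with single libraries left out. Signs also turned in some alternatives for uncalled differences between the sorted populations (Umps, Upp1, Upp2, Uck2, Dpyd, Cda and Cmpk1) and for differences of responses of Uck1, Uck2 and Dpyd. The cause was not tested.

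Over all genes, calls in LGR5+ cells (2590) were 4045 with those groups alone, 4448 without both LGR5- replicate 3 libraries and 1373 to 2488 with single libraries left out. In LGR5- cells (2489) they were 1282 with those groups alone, 1439 without both untreated replicate 1 libraries and 1562 to 3418 with single libraries left out. Between treated LGR5+ and LGR5- cells (0) they were 82 with DESeq2 and 11 with no filter. Depth limits Upp1, Upp2, Dpyd and Dpys most, with 80 reads or fewer per library.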
